A study of Mus musculus with 18 samples.

Results

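Fibroblast growth factors, their receptors and a secreted carrier protein were followed from ultraviolet-exposed skin to papilloma and squamous cell carcinoma of the mouse. The 8 genes were chosen by symbol and comprise the ligands Fgf2, Fgf7, Fgf10 and Fgf18, the receptors Fgfr1, Fgfr2 and Fgfr3, and the carrier Fgfbp1. All 8 were found among the 14521 named genes of the table. RNA was sequenced from 6 littermate female SKH-1E Hairless mice, an outbred strain without a working Hairless gene that is prone to skin tumours under ultraviolet light. Every mouse had been exposed chronically to a solar simulator. From each came 1 sample of nonlesional exposed skin (CHR), 1 of a benign epidermal tumour, the papilloma (PAP), and 1 of an invasive squamous cell carcinoma (SCC), so that 18 libraries formed 3 groups of n = 6 matched by mouse. Whole pieces of tissue were used, so skin and lesions held other cell types beside keratinocytes, and no skin without ultraviolet exposure was among the libraries analysed here.

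Fibroblast growth factors are secreted proteins that bind receptor tyrosine kinases together with heparan sulfate chains on the cell surface. In skin, Fgf7 and Fgf10 are made by cells of the dermis and act on the epithelial splice form of Fgfr2 in keratinocytes, where they drive proliferation and repair of the epidermis. Fgf2 is a broadly acting ligand stored in the extracellular matrix, and Fgfbp1 releases it from that store. Counts per gene do not separate the epithelial and mesenchymal splice forms of the receptors.

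The libraries held 15.4 to 21 M recovered reads (median 18.9 M). The first principal component of all genes held 56.6% of the variance and placed CHR at -72.6 to -57.5, PAP at 36.3 to 92.1 and the SCC of 5 mice at -15.6 to 28.8. The SCC of mouse 10 lay apart at 59.9, among the papillomas, so calls on SCC are given with and without it. Levels are normalised read counts, which are recovered reads divided by the size factor of the library, and values of a group are mean ± SD (n = 6). Tests are moderated tests of limma on log2(deposited value + 1) with the mouse as block, two-sided, with Benjamini-Hochberg adjustment over 14521 genes and a threshold of 0.05. The deposited scale compresses low counts, so differences of weakly expressed genes are also given from limma-voom on recovered reads, which compresses them less. Limma-voom adds a small offset to each count, which still limits differences that involve 0 or a few reads.

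Several lists of cell type markers moved together with the sample type. Over all genes, 23.3% were higher and 29.3% lower in PAP vs CHR, and 8.75% were higher in SCC vs PAP. Of 6 basal keratinocyte markers, 6 were higher in PAP than in CHR, and their summed level was 127225 to 225072 normalised reads in CHR, 406909 to 707744 in PAP and 149144 to 485485 in SCC. Of 7 dermal fibroblast markers, 6 fell in PAP vs CHR and 3 rose in SCC vs PAP, with sums of 137894 to 306445 in CHR, 4783 to 160769 in PAP and 17216 to 496274 in SCC. Skeletal muscle markers fell in PAP vs CHR (7 of 7) and rose in SCC vs PAP (6 of 7), and summed to 350897 to 529631 in CHR, 126.9 to 26063 in PAP and 239.1 to 173925 in SCC. Myeloid markers (5 of 5 measured) were lower in PAP than in CHR and higher in SCC than in PAP, with sums of 32774 to 54581, 1198 to 8153 and 4078 to 47495. Of the remaining lists, 6 of 6 sebaceous, 6 of 7 adipocyte and 4 of 4 T cell markers were lower in PAP vs CHR. So were 3 of 6 endothelial markers, while 1, Emcn, was higher (0.83 ± 0.12, limma adjusted p = 8.24e-05). The 2 of 7 hair follicle and 1 of 6 suprabasal markers that were lower did not exceed the share of all genes. In SCC vs PAP, 3 of 6 endothelial and 1 of 7 hair follicle markers were also higher, and 1 of 6 basal markers, Krt5, was lower. Without the SCC of mouse 10, the markers higher in SCC than in PAP were 5 of 7 for fibroblasts, 7 of 7 for muscle and 5 of 5 for myeloid cells. Without it, 3 of 6 endothelial, 2 of 7 adipocyte, 1 of 7 hair follicle and 1 of 6 sebaceous markers were higher as well, and 3 of 6 basal markers lower. In SCC vs CHR, 6 of 6 basal markers were higher, against 15.8% of all genes. Lower were 7 of 7 muscle, 5 of 5 myeloid, 6 of 6 sebaceous, 6 of 7 adipocyte and 4 of 4 T cell markers. The same held for 4 of 6 suprabasal and 2 of 7 fibroblast markers, against 22.7% of all genes. Endothelial markers went both ways (2 of 6 higher, 1 lower), and 1 of 7 hair follicle markers was higher. In SCC vs CHR without the SCC of mouse 10, 4 basal markers were higher and 3 myeloid and 3 suprabasal markers lower. The other counts stayed. The lowest sums of fibroblast, muscle and myeloid markers within PAP and within SCC were those of mouse 10. No marker of the basal, fibroblast, muscle or myeloid lists was at 0 in all libraries of a group. In such bulk tissue, fewer cells of a type and less RNA per cell cannot be told apart.

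The first comparison asked how the 8 genes differ between exposed skin and papilloma. All 8 passed the threshold in PAP vs CHR, where 52.6% of all genes did, so the count is read against a large background. The ligands Fgf2, Fgf7 and Fgf10 and the receptor Fgfr1 fell (4 of 8, against 29.3% of all genes), and Fgf18, Fgfr2, Fgfr3 and Fgfbp1 rose (4 of 8, against 23.3%). Normalised counts of PAP and CHR did not overlap for 6 of the 8 genes, against 33.8% of all genes. The median difference of the 8 genes was -0.19 and that of all genes 0.00 on the log2 scale of the deposited values.

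The second comparison asked what differs further once a carcinoma has formed. Of the 8 genes, 4 rose in SCC vs PAP, against 8.75% of all genes, and these were Fgf2, Fgf7, Fgf10 and Fgfr1, while 0 fell in limma, against 1.1%, with 1 gene (Fgfr3) lower at an unadjusted p under 0.05 and 0 lower in limma-voom. Including both directions, 9.85% of all genes were called. The counts of SCC and PAP overlapped for all 8 genes, and for all but 0.413% of the genes in the table. The median difference of the 8 genes was 0.50, with -0.02 over all genes. Without mouse 3, without mouse 7 or without mouse 8, 0 of the 8 genes passed in limma, with a lowest adjusted p of 0.0545, 0.079 and 0.0909, while 5, 4 and 4 had an unadjusted p under 0.05. With only PAP and SCC libraries in the fit the count was also 0, with a lowest adjusted p of 0.0512 and 5 genes at an unadjusted p under 0.05. Limma-voom called the 4 genes with all mice.

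The third comparison set carcinoma against exposed skin. In SCC vs CHR, 5 of 8 genes were called, against 38.4% of all genes. Fgf18, Fgfr2 and Fgfbp1 were higher (3 of 8, against 15.8%) and Fgf2 and Fgf10 lower (2 of 8, against 22.7%). Counts did not overlap for 3 of 8 genes, Fgf10, Fgf18 and Fgfbp1, against 19.9% of all genes. Fgf10 and Fgfbp1 were called whichever mouse was left out, whereas Fgf2, Fgf18 and Fgfr2 were not. Without the SCC of mouse 10 the count was 3, namely Fgf10, Fgf18 and Fgfbp1. The 7 differences of SCC from PAP or CHR that missed the threshold with all libraries also missed it without that library, with adjusted p of 0.0953 to 0.626. The 3 comparisons share libraries with each other, so they are not independent.

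**Figure D1:**
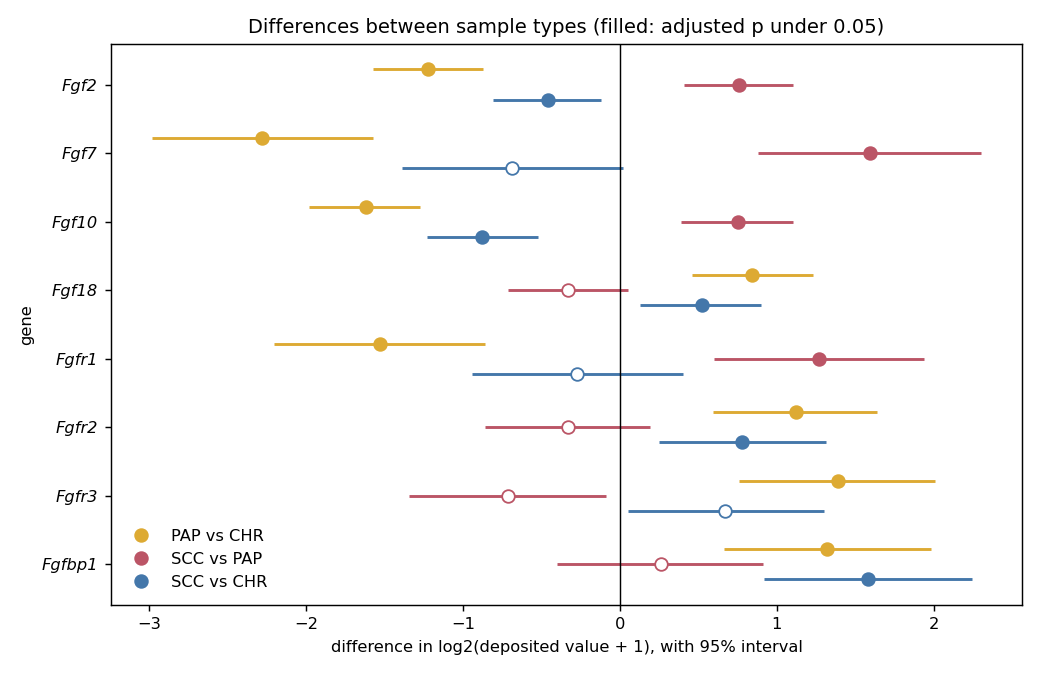
Differences between sample types for the 8 genes, as log2(deposited value + 1) on the horizontal axis with the 95% interval from limma as lines. Filled points passed an adjusted p of 0.05 and open points did not. Fgf2, Fgf7, Fgf10 and Fgfr1 lie left of 0 in PAP vs CHR and right of 0 in SCC vs PAP, and the other 4 genes lie right of 0 in PAP vs CHR.

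Promoter windows of the 4 ligands are shown because Fgf18 moved opposite to the other 3 in PAP. Each window holds 250 bases before and 50 bases after the annotated start in RefSeq, build GRCm38.p6, and windows were found for 7 of the 8 genes, without Fgfr1. Both strands were searched for AP-1 (TGANTCA), SP1 (GGGCGG), NF-Y (CCAAT), the TATA box (TATAAA) and an ETS core (CCGGAA), which 7.81%, 35.7%, 37.4%, 13.6% and 14.9% of 32851 promoters of this length hold. No searched letters overlap each other in the windows shown, and capitals mark the matches, 5′ to 3′ on the strand of the gene. The start used by the window lies 176 bases downstream of the gene start given here for Fgf2, and at the gene start for the other 3 ligands. The windows are Fgf2 at chr3:37348403-37348702, plus strand, Fgf7 at chr2:126034408-126034707, plus strand, Fgf10 at chr13:118714449-118714748, plus strand, and Fgf18 at chr11:33147351-33147650, minus strand.
Fgf2: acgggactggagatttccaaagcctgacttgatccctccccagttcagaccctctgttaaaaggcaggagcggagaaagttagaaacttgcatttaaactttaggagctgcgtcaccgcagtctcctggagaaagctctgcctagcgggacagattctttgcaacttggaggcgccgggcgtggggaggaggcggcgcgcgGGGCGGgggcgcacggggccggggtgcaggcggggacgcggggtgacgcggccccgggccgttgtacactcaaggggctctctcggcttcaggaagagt
Fgf7: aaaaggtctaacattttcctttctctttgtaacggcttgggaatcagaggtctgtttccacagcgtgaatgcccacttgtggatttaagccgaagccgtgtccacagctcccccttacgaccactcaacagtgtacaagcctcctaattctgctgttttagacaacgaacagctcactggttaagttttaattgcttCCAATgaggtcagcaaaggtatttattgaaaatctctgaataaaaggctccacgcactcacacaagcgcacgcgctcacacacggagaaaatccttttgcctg
Fgf10: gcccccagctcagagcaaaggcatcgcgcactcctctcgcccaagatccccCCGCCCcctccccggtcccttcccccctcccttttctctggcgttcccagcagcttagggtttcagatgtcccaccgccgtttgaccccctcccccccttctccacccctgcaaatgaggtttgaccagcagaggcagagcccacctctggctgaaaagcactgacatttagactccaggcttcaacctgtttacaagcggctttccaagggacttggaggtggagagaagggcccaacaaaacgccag
Fgf18: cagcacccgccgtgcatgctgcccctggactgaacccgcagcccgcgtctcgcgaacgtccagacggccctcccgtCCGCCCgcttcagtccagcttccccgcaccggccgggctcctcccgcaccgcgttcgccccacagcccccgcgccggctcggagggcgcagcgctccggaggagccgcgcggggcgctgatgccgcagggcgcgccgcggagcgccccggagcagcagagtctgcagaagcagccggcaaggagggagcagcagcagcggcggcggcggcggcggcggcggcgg
The windows of Fgf2, Fgf10 and Fgf18 each hold 1 match to SP1, and that of Fgf7 holds 1 to NF-Y. AP-1 and ETS letters are in none of the windows of the 7 genes. GC content is 62.7% for Fgf2, 45.7% for Fgf7, 60.7% for Fgf10 and 78.7% for Fgf18, beside a median of 52.7% over all promoters.

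Fgf7, the keratinocyte growth factor, is gene 14178 at GRCm38.p6 chr2:126034658-126091185 on the plus strand. Its counts in CHR ranged from 141.1 to 512.3 with a median of 197.9. In PAP they ranged from 0 to 56 with a median of 4.82, and in SCC from 5.37 to 268.5 with a median of 136.5. Every papilloma lay below every CHR sample, the highest papilloma was that of mouse 2, and the SCC of mouse 10 lay within the papilloma range while the other 5 carcinomas were above it. The mean of 238.7 ± 136.9 in CHR was 18.8-fold that of 12.7 ± 21.4 in PAP. Without the papilloma of mouse 2 the mean in PAP was 4.03 ± 3.18 and the ratio 59.3-fold. The difference was -2.28 ± 0.33 (SE) with a limma adjusted p = 8.48e-05, lower in 6 of 6 mice, and -4.96 ± 0.75 in limma-voom. In SCC the mean was 140.9 ± 95.9, which differed from PAP by 1.59 ± 0.33 with a limma adjusted p = 0.0144, higher in 6 of 6 mice, by 3.91 ± 0.74 in limma-voom, and by 1.85 (adjusted p of 0.00257) without the SCC of mouse 10. From CHR, the difference of SCC was -0.69 with a 95% interval of -1.39 to 0.02 and a limma adjusted p = 0.114, and -1.04 in limma-voom (adjusted p of 0.0704), so a lower level was not established. The papilloma of mouse 7 had 0 reads, which at 3 reads allows a normalised count of up to 3.13, and this limit covers counting error only.

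Fgf10 encodes a second ligand of mesenchymal cells for epithelial Fgfr2 and lies at chr13:118714699-118792573 on the plus strand (gene 14165). In CHR, counts ranged from 50.9 to 113.7 with a median of 73. They ranged from 0 to 11.9 in PAP with a median of 0.448 and from 0.895 to 37.6 in SCC with a median of 23.5. The papillomas of mice 7, 9 and 10 had 0 reads, which allows 3.13, 3.59 and 3.15 normalised reads, and that of mouse 2 had 14 reads. CHR did not overlap with PAP or with SCC, and SCC lay between the CHR and PAP samples of the same mouse in 6 of 6 mice. The mean in CHR (77.1 ± 26) was 31.9-fold the mean in PAP (2.42 ± 4.69). That ratio rests on mouse 2, since the other 5 papillomas held 3 reads in all, with a mean of 0.524 ± 0.774 normalised reads. The difference in PAP vs CHR was -1.62 ± 0.16 with a limma adjusted p = 5.29e-06 in 6 of 6 mice, and -5.38 ± 0.64 in limma-voom. In SCC vs PAP it was 0.75 ± 0.16 (limma adjusted p = 0.017) in 6 of 6 mice, 3.43 ± 0.64 in limma-voom and 0.84 (adjusted p of 0.00637) without the SCC of mouse 10. Carcinomas, with 21.6 ± 13.4, were 3.57-fold below CHR, a difference of -0.88 ± 0.16 with a limma adjusted p = 0.00126 in 6 of 6 mice, of -1.96 ± 0.43 in limma-voom and of -0.78 (0.00372) without the SCC of mouse 10.

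Fgf2, the basic fibroblast growth factor, lies at chr3:37348477-37410106 on the plus strand (gene 14173). It shares 640 exon bases with Nudt6 on the opposite strand, and since the strand setting of the counting was not stated, reads in that stretch cannot be assigned with certainty. Counts were 48.9 to 92.9 in CHR (median 65.7), 0 to 19.5 in PAP (median 5.29) and 8.95 to 55.8 in SCC (median 41.1). All papillomas were below all CHR samples, and SCC was intermediate between CHR and PAP in 6 of 6 mice, with the SCC of mouse 10 lowest. The mean fell 9.48-fold from 66.8 ± 16 in CHR to 7.05 ± 6.9 in PAP, a difference of -1.22 ± 0.16 (limma adjusted p = 4.22e-05, 6 of 6 mice) and of -3.43 ± 0.50 in limma-voom. Without the papilloma of mouse 2, whose count was the highest, the mean in PAP was 4.55 ± 3.57 and the ratio 14.7-fold, and the papilloma of mouse 10 had 0 reads, which allows 3.15 normalised reads. In SCC the mean was 36 ± 17, and the difference from PAP was 0.76 ± 0.16 with a limma adjusted p = 0.0156 in 6 of 6 mice, 2.56 ± 0.50 in limma-voom and 0.83 (0.00725) without the SCC of mouse 10. SCC was below CHR by -0.46 ± 0.16 in 6 of 6 mice with a limma adjusted p = 0.0361. Settings in which that call was lost included limma-voom (-0.87, adjusted p of 0.0894) and limma without the SCC of mouse 10 (-0.39, 0.0912). It was also lost without mouse 3, mouse 7, mouse 9 or mouse 10 (0.0531, 0.0574, 0.137 and 0.125). Over all 15 alternatives of limma and limma-voom, the adjusted p ranged from 0.0271 to 0.147, so the listed settings are not the only losses.

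Fgf18, a ligand that acts through Fgfr3 in cartilage and is made in hair follicles, moved in the opposite direction (gene 14172, chr11:33116970-33147400, minus strand). It was weakly expressed throughout, with 2.32 to 7.29 normalised reads in CHR (median 5.44), 11.6 to 94.4 in PAP (median 43) and 17 to 32.4 in SCC (median 19.4). CHR lay below every lesion, while papillomas spread widely on both sides of the carcinomas, with the papilloma of mouse 10 highest and that of mouse 3 lowest. The mean rose from 5.32 ± 1.82 in CHR to 43.7 ± 30.2 in PAP, an 8.21-fold change with a difference of 0.84 ± 0.18 (limma adjusted p = 0.00151, 6 of 6 mice) and of 2.73 ± 0.52 in limma-voom. In SCC the mean was 21.7 ± 5.87, and the difference from PAP was -0.33 with a 95% interval of -0.71 to 0.05 and a limma adjusted p = 0.277, or -0.80 in limma-voom (adjusted p of 0.305). SCC exceeded CHR by 0.52 ± 0.18 in 6 of 6 mice with a limma adjusted p = 0.0355, by 1.93 ± 0.53 in limma-voom and by 0.60 (0.0252) without the SCC of mouse 10. The adjusted p of this call was 0.056, 0.0921, 0.0824 and 0.0653 without mouse 2, mouse 7, mouse 8 and mouse 9.

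**Figure D2:**
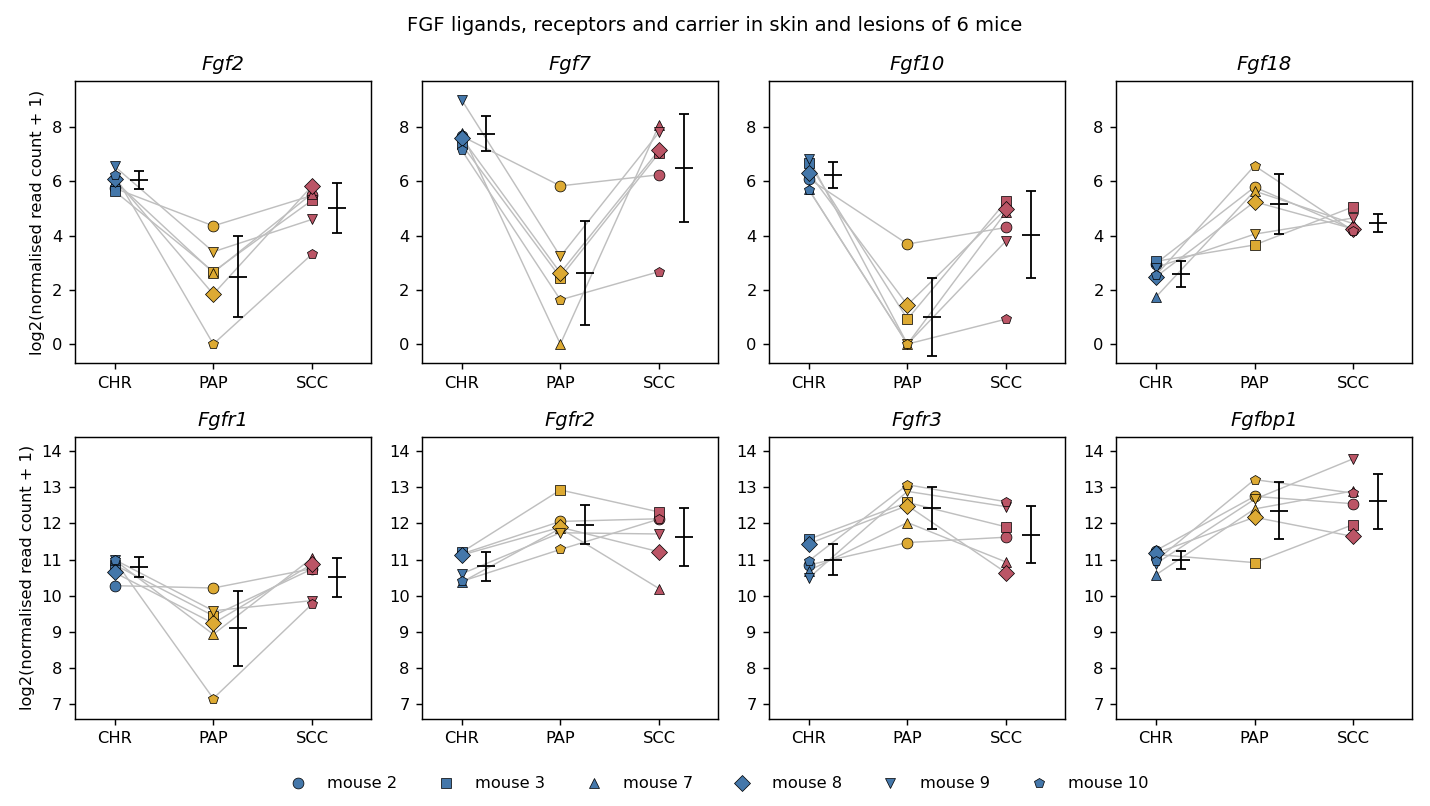
Expression of the 8 genes in each library, as log2(normalised read count + 1) on the vertical axis, by sample type. Each symbol is 1 mouse, grey lines join the samples of a mouse, and black bars give mean ± SD of the 6 libraries, with 1 vertical scale for the ligands and another for the receptors and Fgfbp1. The papillomas lie below every CHR sample for Fgf2, Fgf7, Fgf10 and Fgfr1, and the CHR samples lie below every lesion for Fgf18.

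Fgfr1, the receptor found mainly on mesenchymal cells, lies at chr8:25518759-25575718 on the plus strand (gene 14182). Its counts were 1240 to 2041 in CHR (median 1932), 141.6 to 1185 in PAP (median 648.5) and 870.3 to 2101 in SCC (median 1711). All papillomas were below all CHR samples, that of mouse 10 was lowest, and the carcinomas of mice 9 and 10 lay within the papilloma range while the other 4 lay above it. The mean fell 2.78-fold from 1794 ± 319.4 in CHR to 646.0 ± 343.2 in PAP, a difference of -1.53 ± 0.31 with a limma adjusted p = 0.00116 in 6 of 6 mice. In SCC, with 1533 ± 510.7, the level exceeded PAP by 1.27 ± 0.31 in 6 of 6 mice (limma adjusted p = 0.025), and by 1.27 (0.0281) without the SCC of mouse 10. The difference of SCC from CHR was -0.27 with an interval of -0.94 to 0.40 and a limma adjusted p = 0.523, with 3 mice higher and 3 lower.

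Fgfr2 encodes the receptor whose epithelial form binds Fgf7 and Fgf10 (gene 14183, chr7:130162451-130266808, minus strand). Its annotation shares 314 exon bases with Ctbp2 on the same strand. Counts were 1325 to 2352 in CHR (median 1892), 2482 to 7768 in PAP (median 3759) and 1172 to 5093 in SCC (median 3892). All papillomas lay above all CHR samples, with that of mouse 3 highest, and the carcinomas spread over the range of both groups, with that of mouse 7 below every CHR sample. The mean rose 2.29-fold from 1848 ± 488.3 in CHR to 4239 ± 1826 in PAP, a difference of 1.12 ± 0.24 with a limma adjusted p = 0.00201 in 6 of 6 mice. SCC reached 3483 ± 1489 and differed from PAP by -0.33 with an interval of -0.86 to 0.19 (limma adjusted p = 0.442). It exceeded CHR by 0.78 ± 0.24 in 5 of 6 mice with a limma adjusted p = 0.0231. That p was 0.0587 without the mouse as block, 0.0572 without the SCC of mouse 10 (difference 0.58), and 0.0592, 0.0726, 0.0818 and 0.0624 without mouse 2, mouse 3, mouse 9 and mouse 10.

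Fgfr3, a receptor of keratinocytes that is often mutated in benign epidermal growths, lies at chr5:33721724-33737068 on the plus strand (gene 14184) and shares 998 exon bases with an unclassified transcript on the other strand. Counts were 1437 to 3021 in CHR (median 1917), 2836 to 8588 in PAP (median 5938) and 1588 to 6195 in SCC (median 3485). Only the papilloma of mouse 2 fell within the CHR range, and the 2 highest carcinomas were those of mice 9 and 10. The mean rose 2.75-fold from 2120 ± 634.9 in CHR to 5837 ± 2119 in PAP, by 1.39 ± 0.29 with a limma adjusted p = 0.00145 in 6 of 6 mice. In SCC it was 3724 ± 1889. The difference from PAP was -0.71 with an interval of -1.34 to -0.09, lower in 5 of 6 mice, and its limma adjusted p = 0.145 did not pass. The difference of SCC from CHR, 0.67 with an interval of 0.05 to 1.30, did not pass either (limma adjusted p = 0.0823), but it did without mouse 8 (0.96, adjusted p of 0.019), whose carcinoma had the lowest count. Without the SCC of mouse 10 it was 0.56 (0.177).

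Taking the 3 receptors per kilobase of their longest principal transcript, Fgfr1 made up 26.1 ± 7.51% of the receptor reads in CHR, 4.91 ± 3.23% in PAP and 16.5 ± 11% in SCC. These shares ranged from 18.1% to 33.8% in CHR and from 1.01% to 10.8% in PAP, with no overlap, and from 5.83% in the SCC of mouse 10 to 34% in that of mouse 7. Fgfr2 held 39.1 ± 6.5%, 45.7 ± 13.2% and 45.5 ± 10.2%, and Fgfr3 held 34.8 ± 4.8%, 49.4 ± 15.4% and 38 ± 10.8%, in CHR, PAP and SCC. The papillomas differed among themselves, from 26.7% Fgfr2 and 72.3% Fgfr3 in mouse 10 to 58.6% Fgfr2 and 30.6% Fgfr3 in mouse 2. These shares depend on the length assigned to each gene. With the length of all annotated exons, an alternative chosen after seeing the data, Fgfr2 held 27.2%, 32.4% and 32.5%, Fgfr3 held the largest share with 44.3%, 62% and 49.1%, and Fgfr1 held 28.5%, 5.55% and 18.4%. Shares are a description and were not tested.

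**Figure D3:**
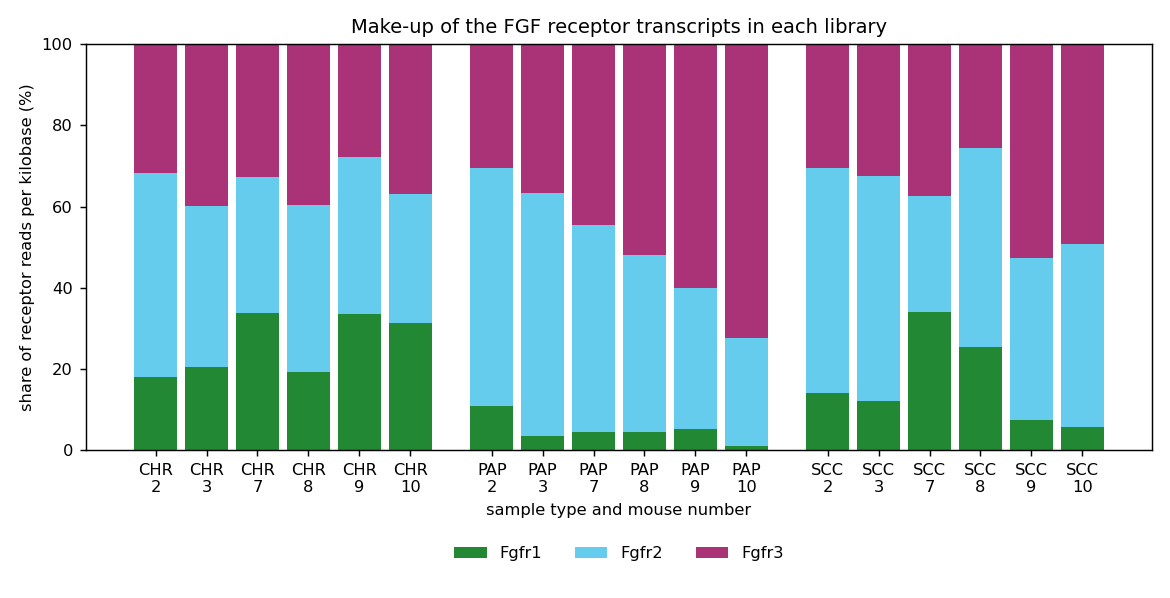
Share of Fgfr1, Fgfr2 and Fgfr3 among receptor reads per kilobase in each of the 18 libraries, in percent, by sample type and mouse number. The share of Fgfr1 is at most 10.8% in PAP and at least 18.1% in CHR, and SCC samples spread from 5.83% to 34%.

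Fgfbp1, the secreted carrier that mobilises stored fibroblast growth factors, had the highest mean of the 8 genes per kilobase in each group, though not in every library (gene 14181, chr5:43978858-43981828, minus strand). Its promoter window at chr5:43981750-43982049, minus strand, is shown because it was the only one of the 7 with a match to the TATA box, in capitals with a match to NF-Y read on the other strand.
Fgfbp1: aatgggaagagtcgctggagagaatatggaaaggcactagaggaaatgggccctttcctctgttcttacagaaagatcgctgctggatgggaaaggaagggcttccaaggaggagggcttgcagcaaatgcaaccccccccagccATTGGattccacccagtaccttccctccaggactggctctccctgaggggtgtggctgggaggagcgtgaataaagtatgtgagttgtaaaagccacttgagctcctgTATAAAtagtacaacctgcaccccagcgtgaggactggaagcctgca
The start used by this window lies 29 bases downstream of the gene start given here. The NF-Y match begins 105 bases before the start used and the TATA box match 3 bases after it, and GC content is 53.3%. Counts were 1524 to 2431 in CHR (median 2129), 1929 to 9479 in PAP (median 5948) and 3184 to 14129 in SCC (median 6638). Every carcinoma was above every CHR sample, and the papilloma of mouse 3 alone lay within the CHR range. The mean rose 2.8-fold from 2068 ± 333.6 in CHR to 5797 ± 2520 in PAP, by 1.32 ± 0.31 with a limma adjusted p = 0.00284, higher in 5 of 6 mice and lower in mouse 3. SCC reached 7036 ± 3896, which exceeded CHR 3.4-fold, by 1.58 ± 0.31 with a limma adjusted p = 0.0016 in 6 of 6 mice, and by 1.62 (0.00351) without the SCC of mouse 10. Between SCC and PAP the difference was 0.26 with an interval of -0.40 to 0.91 (limma adjusted p = 0.662), 3 mice being higher and 3 lower.

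The order of the ligands per kilobase differed between sample types. In CHR, Fgf7 was highest with 89.3 ± 51.2 normalised reads per kilobase, followed by Fgf10 with 18.7 ± 6.31, Fgf2 with 11.2 ± 2.67 and Fgf18 with 4.89 ± 1.68. Each ligand exceeded the next in 6, 5 and 6 of 6 libraries. In PAP, Fgf18 came first with 40.2 ± 27.9, above Fgf7 in 6 of 6 libraries. Fgf7, Fgf2 and Fgf10 followed with 4.75 ± 8.01, 1.18 ± 1.15 and 0.587 ± 1.14, which lie within each other's spread. Within libraries, Fgf7 exceeded Fgf2 and Fgf2 exceeded Fgf10 in 5 of 6 each, at few reads. In SCC the order was Fgf7 (52.7 ± 35.9), Fgf18 (19.9 ± 5.41), Fgf2 (6.03 ± 2.85) and Fgf10 (5.25 ± 3.26). The last pair lay within its spread, with Fgf2 above Fgf10 in 5 of 6 libraries. Fgf7 was above Fgf18 in 6 of 6 libraries of CHR, 0 of 6 of PAP and 5 of 6 of SCC. Of the receptors, Fgfr2 (556.0 ± 147.0 per kilobase in CHR) and Fgfr3 (499.4 ± 149.6) could not be ordered, since Fgfr2 was higher in 4, 3 and 3 of 6 libraries of CHR, PAP and SCC. By the length of all annotated exons, Fgfr2 was above Fgfr3 in 0, 1 and 1 of 6 libraries and above Fgfr1 in 3, 6 and 5, so the order of these receptors turned on the length used. Fgfr1 stood at 357.0 ± 63.6, 128.6 ± 68.3 and 305.0 ± 101.6 in CHR, PAP and SCC, below both other receptors in every papilloma. Fgfbp1 stood at 944.0 ± 152.3, 2646 ± 1150 and 3211 ± 1778 in CHR, PAP and SCC. In the papilloma of mouse 3, Fgfbp1 (880.2 per kilobase) lay below Fgfr2 (2338) and Fgfr3 (1441).

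Because the dermal and epidermal markers moved with the sample type, each gene was also taken relative to the summed counts of a marker list within the same mouse, on the log2 scale (mean ± SD of 6 mice). Relative to dermal fibroblast markers, PAP was below CHR by -3.02 ± 2.19 for Fgf7, by -3.10 ± 1.96 for Fgf10 and by -1.45 ± 0.97 for Fgf2, each in 6 of 6 mice. These values include a pseudocount of 1 and papillomas with 0 reads (1 for Fgf7, 3 for Fgf10 and 1 for Fgf2). With 3 reads in place of 0, the most that such a count allows, the mean ratios were -2.68, -2.05 and -1.11, and PAP was lower in 6, 5 and 5 mice. Only counts of 0 were replaced, so these means do not bound the counting error of papillomas with a few reads. Fgfr1 differed by 0.42 ± 0.72, higher in 5 mice and lower in 1. When each marker weighed the same, the ratios were -1.92 for Fgf7, -2.0 for Fgf10, -0.35 for Fgf2 and 1.52 for Fgfr1. The weights enter only the marker level, so every gene moved by the same amount. Among these genes, that amount exceeded the spread of Fgf2 and Fgfr1 only. Between SCC and CHR, the ratio to fibroblast markers was -1.77 ± 0.96 for Fgf10 in 6 of 6 mice and -0.84 ± 1.30 for Fgf7 in 5 of 6. For Fgf2 it was -0.62 ± 0.84, higher in 2 mice and lower in 4. Relative to basal keratinocyte markers, Fgfr2, Fgfr3 and Fgfbp1 in PAP differed from CHR by -0.58 ± 0.58, -0.31 ± 0.49 and -0.37 ± 0.74, means below 0 while their counts rose. Fgf18 differed by 0.84 ± 1.27 on this scale, higher in 4 mice and lower in 2. In SCC vs CHR on this scale, Fgfr2 differed by -0.09 ± 0.45, with 3 mice higher and 3 lower. Fgfbp1 differed by 0.72 ± 1.08 (4 higher, 2 lower) and Fgf18 by 0.97 ± 0.94 (5 higher, 1 lower). These ratios are descriptions, and the part of cell type content in the differences was not tested.

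**Figure D4:**
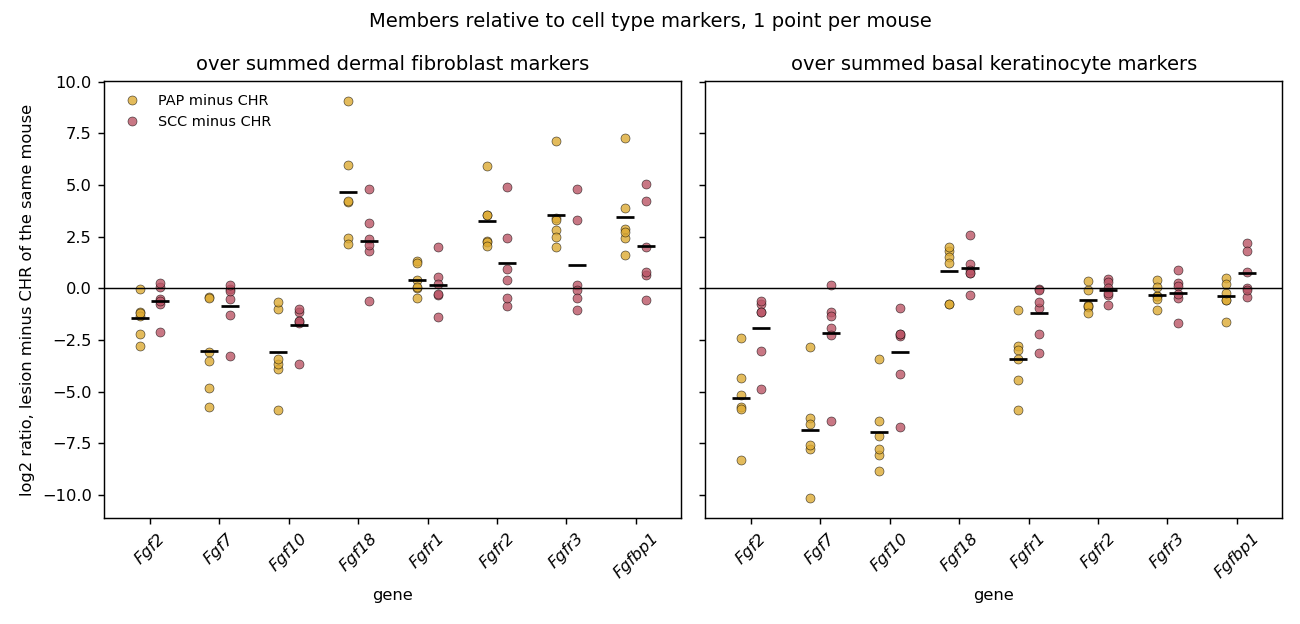
Log2 ratio of each gene to the summed counts of dermal fibroblast markers (left) and basal keratinocyte markers (right), as lesion minus CHR of the same mouse, with 1 point per mouse and bars at the mean. Fgf7 and Fgf10 in PAP lie below 0 in both panels in all 6 mice when libraries with 0 reads are drawn at 0, and Fgfr2, Fgfr3 and Fgfbp1 in PAP lie around or below 0 on the right.

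Genes with the most similar course were sought by Pearson correlation of log2(normalised count + 1) over the 18 libraries among 12701 genes with a mean of at least 50. The libraries fall into 3 groups and share mice, so these coefficients mostly reflect the group differences and carry no test. Fgf2 was nearest to Sh3bgrl, Cilp and Olfml1 (r of 0.98, 0.97 and 0.97), and Fgf7 to the acute-phase gene Saa3, the secreted regulator Bmper and haptoglobin Hp (0.97 each). Nearest to Fgf10 were Serpina3n and the striated muscle genes Cmya5 and Ppp1r3a (0.98 each). Fgf18 followed the cell cycle genes Foxm1 and Cdc25b (0.95 each) and the AP-1 subunit gene Junb (0.94). Fgfr1 was nearest to Zfp651 (0.97), Tspan11 and Arap3 (0.96 each), Fgfr2 to Aknad1 (0.90), Robo1 and Gnai1 (0.89 each), and Fgfr3 to Ndufa4l2 (0.92), Apitd1 and Vprbp (0.91 each). Fgfbp1 was nearest to Psat1 (0.95), an enzyme of serine synthesis, Gnl3 (0.94) and Zdhhc13 (0.92). Among the members themselves, Fgf2 and Fgfr1 had an r of 0.95 and Fgf7 and Fgf10 of 0.94, whereas Fgf10 and Fgfr3 had -0.84 and Fgf2 and Fgfr3 -0.85.

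The rest of the pathway was read from 7 lists with 56 of 70 genes in the table. Other secreted ligands were measured for 4 of 14, and all 4 fell in PAP vs CHR, against 29.3% of all genes. Their median difference was -0.93 on the deposited scale, which compresses low counts. Fgf1, which binds every receptor of the family, fell from 26.9 ± 4.87 in CHR to 1.9 ± 0.721 in PAP (-0.84 ± 0.11, limma adjusted p = 3.74e-05, and -3.49 ± 0.45 in limma-voom). In SCC it was 8.24 ± 6.93, a difference from PAP of 0.29 in limma (adjusted p of 0.113) and of 1.64 in limma-voom (0.0382). Fgf9, a ligand of organ development, fell from 25.1 ± 6.07 to 5 ± 5.8 (-2.56 ± 0.45 in limma-voom) and rose in SCC to 18.3 ± 8.28 (0.49 ± 0.12 against PAP, limma adjusted p = 0.0255, and 2.08 ± 0.46 in limma-voom). Fgf23, an endocrine ligand, fell from 28.5 ± 9.06 to 2.12 ± 5.2 (-1.03 ± 0.18, limma adjusted p = 0.000334, and -4.60 ± 0.79 in limma-voom). Papilloma means of Fgf1 and Fgf23 lay near 0, so the sizes of their differences are uncertain. Of 3 measured intracellular homologues, which are not secreted, 2 were lower in PAP vs CHR, against 29.3% of all genes. These were Fgf11 and Fgf13, by -0.78 ± 0.15 and -0.56 ± 0.16, and by -1.45 and -1.57 in limma-voom.

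Of 4 further receptors, co-receptors and carriers, 3 fell in PAP vs CHR, against 29.3% of all genes. Klb, the co-receptor of endocrine ligands, fell from 53.3 ± 29.5 in CHR to 1.06 ± 1.41 in PAP and was 3.49 ± 2.91 in SCC (-1.34 ± 0.14 in PAP vs CHR, limma adjusted p = 8.41e-06, and -5.33 ± 0.47 in limma-voom). Fgfr4 fell from 20.9 ± 10.1 to 1.21 ± 2.09 (-4.00 ± 0.65 in limma-voom), and the decoy receptor Fgfrl1 fell as well (-0.76 ± 0.17, limma adjusted p = 0.00255). Papilloma means of Klb and Fgfr4 were also near 0, with the same uncertainty in size. Among 23 measured heparan sulfate genes, 5 rose and 9 fell in PAP vs CHR, 5 rose in SCC vs PAP, and 4 rose and 4 fell in SCC vs CHR. Over all genes, 23.3% rose and 29.3% fell, 8.75% rose, and 15.8% rose and 22.7% fell in these comparisons. Heparanase Hpse, which cleaves the chains, fell from 1499 ± 182.1 to 366.3 ± 146.4 in PAP and was below CHR in SCC with 547.6 ± 279.6 (-1.46 ± 0.18, limma adjusted p = 7.3e-05, and 0.000156 without the SCC of mouse 10). The sulfatase Sulf2 fell from 1728 ± 311.1 to 495.7 ± 327.6, and the sulfotransferase Ndst2 fell (-0.66 ± 0.11, limma adjusted p = 0.000263).

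Adaptors downstream of the receptors moved both ways, with 3 of 11 higher and 2 lower in PAP vs CHR and 1 higher and 2 lower in SCC vs CHR, where 52.6% and 38.4% of all genes were called. The difference in PAP vs CHR was -0.56 ± 0.10 for the adaptor Grb2, -0.40 ± 0.12 for the ubiquitin ligase Cbl and 0.26 ± 0.10 for the adaptor Crk (limma adjusted p = 0.000534, 0.0128 and 0.036). Of 8 feedback inhibitors, 2 were higher and 3 lower (Spry1, Spred1 and Il17rd) in PAP vs CHR, against 23.3% and 29.3% of all genes. Spred3 rose from 93.3 ± 14.5 in CHR to 220.0 ± 100.9 in PAP and was 252.7 ± 106.8 in SCC (0.94 ± 0.17 against CHR, limma adjusted p = 0.0012, and 0.00351 without the SCC of mouse 10), and Spred2 rose by 0.60 ± 0.12 in PAP. Il17rd, an inhibitor at the membrane, fell from 374.3 ± 79.8 to 140.4 ± 40.9 in PAP (-1.09 ± 0.20, limma adjusted p = 0.000605). Of the 3 ETS factors induced by the pathway, Etv4 rose from 205.1 ± 44.4 in CHR to 636.6 ± 363.6 in PAP and 764.9 ± 331.3 in SCC (1.53 ± 0.29 against CHR, limma adjusted p = 0.0015, and 0.000571 without the SCC of mouse 10), and Etv1 fell from 38.5 ± 8.64 to 5.57 ± 2.63 in PAP (-0.84 ± 0.13, limma adjusted p = 0.00015, and -2.72 ± 0.41 in limma-voom) and rose again in SCC vs PAP (0.50 ± 0.13, 0.0289, and 1.86 ± 0.42 in limma-voom). Over all 7 lists, 35 genes were called in PAP vs CHR, 7 in SCC vs PAP and 20 in SCC vs CHR, which is 62.5%, 12.5% and 35.7% of the 56 genes, beside the 52.6%, 9.85% and 38.4% of all genes. Without the SCC of mouse 10 the 7 genes called in SCC vs PAP, Fgf9 and Etv1 among them, kept the call and Fgf23, Fgfrl1, Hpse, Spry1 and Spred1 gained it, while in SCC vs CHR 18 of the 20 kept it and Fgf23 and Gpc2 lost it. The count in SCC vs PAP was 0 without mouse 3, mouse 7 or mouse 8, where 17, 13 and 13 genes had an unadjusted p under 0.05.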

How the data were processed

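RNA-seq of 18 mouse skin libraries was used, grouped by the sample titles into CHR, PAP and SCC with the mouse number. The authors aligned paired reads to mm10 with MOSAIK, counted them per gene with HTSeq, divided by scaling factors and applied a variance-stabilizing transformation. The deposited values are whole-number scores on the linear scale of that transformation, in which 0 reads appear as 39. The authors' methods mention a scaling of batch medians. Low genes had been removed by an unstated rule (smallest row maximum 57), and 21 of 14542 entries without a symbol (at most 0.236% of a library) were left out. Versions, annotation release and strand setting are not given in the sources used here, and 0 sample columns were left unmapped. Since the values are transformed, a count model on raw counts was not used. Inversion with a zero level of 39.13 gave size factors of 0.835 to 1.18, and 98.4% of the deposited whole numbers (100% of those under 100) equalled the transform of a whole number of reads rounded to a whole number, with no further tolerance.

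limma 3.58.1 (R 4.3.3) was fitted to log2(value + 1) of all libraries, with 1 coefficient per group and the mouse as block. The pairing comes from the titles, which give the 3 samples of a mouse the same number, and same-numbered samples correlated with r of -0.245 to 0.507 in their deviations from group means. Scripts were tested on simulated data. Alternatives were no block, the mouse as random effect, limma-voom, log2 normalised counts, scaling by total reads or upper quartile, a pseudocount of 10, a mean of at least 50 normalised reads, fits of 2 groups, and leaving out each mouse. Fits without the SCC of mouse 10, receptor shares by the length of all exons, ratios with 0 reads set to 3, and fold changes without the papilloma of mouse 2 were added after seeing the data. Lengths came from GENCODE and promoters and coordinates from RefSeq. All 8 members are named with their values. From each pathway list up to 3 genes with the lowest adjusted p past the threshold are named, and for each member the 3 genes with the highest correlation. The members and lists were chosen with earlier results of these data known. Figures were drawn with matplotlib 3.10.9.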

Additional observations from a re-analysis of the deposited data

Results flagged for a closer look

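Among 24 sets of 6 libraries (8 genes in 3 sample types), 4 held a sample whose gap to the nearest other exceeded Dixon's 95% critical value. Chance marks about 1 in 20 sets of independent, normally distributed values. These counts are skewed and the sets share libraries, so that rate need not hold here. Fgf7 in the CHR sample of mouse 9 had 512.3 normalised reads, with 219.6 as the next value. Fgf7 in the papilloma of mouse 2 had 56, with 8.39 next. The same papilloma had 11.9 normalised reads of Fgf10, with 1.72 next, and it also held the highest summed skeletal muscle markers of the papillomas (26063 normalised reads, median 497.1), a connection that was not tested. Fgfr2 in the papilloma of mouse 3 had 7768, with 4249 next. Without mouse 2, the differences in PAP vs CHR were -2.50 for Fgf7 and -1.75 for Fgf10, with limma adjusted p = 0.000122 and 2.15e-05. Without mouse 9 that of Fgf7 was -2.09 (limma adjusted p = 0.000837), and without mouse 3 that of Fgfr2 was 1.0 (limma adjusted p = 0.0129).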

How the results depend on the processing

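Of the recomputed differences of the 8 genes, 338 kept direction and call, 36 kept direction but lost the call and 1 gained it, and none turned. In PAP vs CHR the genes kept their calls in every alternative in which they were tested. With a mean of at least 50 normalised reads, Fgf2, Fgf10 and Fgf18 were not tested, which left 5 called genes in PAP vs CHR, 2 in SCC vs PAP and 2 in SCC vs CHR, and 13 called pathway genes in SCC vs CHR. With only 2 groups in the fit, SCC vs PAP gave 0 calls among the 8 genes, 0 among pathway genes and 0 among all genes, where limma had 2830 genes at an unadjusted p under 0.05 and 15 pathway genes. Without the mouse as replicate block, SCC vs PAP gave 810 called genes in place of 1430 and 4 pathway genes in place of 7, while among the 8 genes the only call to change was that of Fgfr2 in SCC vs CHR. Leaving out each mouse gave 0 to 4 of the 8 genes in SCC vs PAP, 2 to 5 in SCC vs CHR, 0 to 12 pathway genes in SCC vs PAP and 0 to 1995 of all genes in SCC vs PAP. The lowest of these counts over all genes were 471 without mouse 3 (3066 below an unadjusted p of 0.05 in limma), 0 without mouse 7 (2450) and 0 without mouse 8 (2594). Without the SCC of mouse 10 there were 3 calls among the 8 genes in SCC vs CHR, 12 pathway genes and 2084 genes in SCC vs PAP. With equal weight for each marker, ratios to fibroblast markers in PAP vs CHR were -0.35 for Fgf2 and 1.52 for Fgfr1. That weighting moved every gene by the same amount. The cause of the changed calls was not tested. Low counts limit the ligands, since Fgf2, Fgf7 and Fgf10 had under 10 normalised reads in 5 of 6 papillomas each and Fgf18 in 6 of 6 CHR samples.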

Other observations

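Dusp6, Spry2, Spry4 and Etv5, picked here after their values were seen, passed the threshold in no comparison of limma with all libraries, whereas Spry1, Spred1, Spred2, Spred3, Il17rd, Etv1 and Etv4 of the same lists passed in PAP vs CHR. Spry1, an inhibitor of the pathway, fell in PAP vs CHR (-0.61 ± 0.16, lower in 6 of 6 mice, limma adjusted p = 0.00674). Dusp6, a phosphatase that acts on ERK, had 2088 ± 548.3 normalised reads in CHR, 3287 ± 1886 in PAP and 4161 ± 3177 in SCC, and its difference in SCC vs CHR was 0.74 with an interval of 0.08 to 1.41 (5 of 6 mice higher, limma adjusted p = 0.0724). Spry2 and Spry4, relatives of Spry1, differed by 0.28 (-0.03 to 0.58) and 0.07 (-0.27 to 0.40) in PAP vs CHR, and by 0.23 (-0.08 to 0.53) and 0.26 (-0.08 to 0.60) in SCC vs CHR. Etv5 differed by 0.07 (-0.39 to 0.52) and 0.08 (-0.38 to 0.54). Fgf22, another ligand of epithelial receptors, fell in PAP vs CHR (from 80.9 ± 24 to 17 ± 12.6, limma adjusted p = 0.00226, and -2.79 ± 0.67 in limma-voom). In SCC it was 13.9 ± 13.5 (-1.19 ± 0.23 against CHR, limma adjusted p = 0.00179, and -3.23 ± 0.72 in limma-voom). Without the SCC of mouse 10 the limma difference from CHR was -1.38 (0.00049), and all 6 mice showed both differences.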
